A study of Mus musculus with 6 samples.

Results

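The SLAM (signalling lymphocytic activation molecule) family receptors Slamf1, Slamf6, Slamf7, Ly9, Cd84 and Cd48 and their adaptor SAP, encoded by Sh2d1a, were measured in CD4+ T cells of memory phenotype. The members were taken as every probe set that the platform annotation assigned to exactly 1 of these 7 genes, which gave 12 of the 34945 probe sets assigned to 1 gene. Slamf1 and Slamf6 had 3 probe sets each, Cd84 had 2, and the other 4 genes had 1. All 6 arrays came from female C57BL/6 mice aged 8 to 10 weeks with acute clinical EAE (experimental autoimmune encephalomyelitis) induced by the myelin peptide MOG35-55. Spinal cord, the organ under attack, gave the cells of 3 samples, and the draining inguinal lymph node those of the other 3. No unimmunised animals and no naive T cells were among the groups compared, so each difference lies between 2 sites of the diseased animal. No label gives the number of animals that contributed to an array.

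SLAM family receptors sit on the surface of lymphocytes and other blood cells. Most of them bind a copy of themselves on a neighbouring cell, while Cd48, which is held by a lipid anchor and has no signalling tail, binds Cd244 and Cd2. The tails of the other receptors carry tyrosine motifs, most of which can dock SAP, while Slamf7 is known to signal through the related adaptor EAT-2. SAP recruits the kinase Fyn and competes with phosphatases such as SHP-1 and SHP-2. In T cells this pathway is known for prolonging contact with B cells, for follicular help and for the development of NKT cells, and loss of SAP in people causes X-linked lymphoproliferative disease.

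The receptor genes lie side by side. In the RefSeq annotation of assembly GRCm38.p6 the 6 receptor genes follow each other on chromosome 1 in the order Ly9, Slamf7, Cd48, Slamf1, Cd84, Slamf6, and Sh2d1a lies on chromosome X. Within that span the annotation holds 8 further genes, mostly noncoding genes and pseudogenes, and none of them had a probe set used here. Upstream sequences in the RefSeq promoter table (GRCm38.p6) were matched for 5 of the 7 members (Slamf1, Slamf6, Slamf7, Cd84 and Cd48; Ly9 and Sh2d1a had no entry). Those of Slamf6 and Slamf1 are shown because these are the receptor genes whose calls went in opposite directions. Each runs 5′ to 3′ over the 250 bases before the annotated start, chr1:171917212-171917461 and chr1:171766882-171767131, both on the plus strand, and capitals mark a match to a searched motif.
Slamf6: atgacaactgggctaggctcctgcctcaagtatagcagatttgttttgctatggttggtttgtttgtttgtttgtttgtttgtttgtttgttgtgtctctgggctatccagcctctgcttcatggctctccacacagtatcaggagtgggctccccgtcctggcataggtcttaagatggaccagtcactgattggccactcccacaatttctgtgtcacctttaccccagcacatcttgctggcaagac
Slamf1: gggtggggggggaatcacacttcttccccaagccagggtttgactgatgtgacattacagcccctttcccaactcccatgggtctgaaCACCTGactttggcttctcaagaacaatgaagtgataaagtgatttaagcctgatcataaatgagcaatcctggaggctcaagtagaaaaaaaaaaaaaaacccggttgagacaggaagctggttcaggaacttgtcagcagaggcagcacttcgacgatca
The motifs searched on both strands were CTTTGA (TCF/LEF core), TGTGGT (RUNX core), TGACTCA (AP-1 site), CAGGTG and CAGCTG (E-boxes), CGGAAG (ETS site) and GGAAAA (NFAT core). The Slamf6 window held none of these letters, and the Slamf1 window held 1 E-box, CAGGTG on the minus strand (CACCTG as printed), 162 bases before the start. That E-box occurred in 17.1% of all 27025 promoter windows of this length. The AP-1 letters, found in 4.43% of windows, occurred in those of Slamf7 and Cd84, and the RUNX letters, found in 14.2%, in those of Cd84 and Cd48. The TCF/LEF letters occurred in the Cd48 window and in 14.1% of all windows. No 2 matches overlapped, and a match describes the letters only.

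Values are RMA intensities on a linear scale, and changes are spinal cord minus lymph node on the log2 scale with the standard error (SE) from limma. Across the 6 arrays the median intensity was 68 to 71, and 20% of values lay below 27. The labelled cell type was borne out by high T cell transcripts in both tissues: Cd3e ran from 1358 to 2153 on spinal cord arrays and from 1248 to 2124 on lymph node arrays, and Cd4 read 2763 to 6371 and 2063 to 7669. None of 10 measured T cell markers was called by limma with Benjamini-Hochberg adjustment, with or without the array number as a block. Of all genes 11.1% were called with the block and 2.54% without it. In the fit without the block 1 of the 10, Cd247, had an unadjusted p below 0.05. Markers of other cells were read on the same arrays. The summed intensity of 19 macrophage, monocyte and microglia markers on spinal cord arrays 1, 2 and 3 was 1685, 6316 and 3535, against 945 to 1026 on those from lymph node. The summed intensity of 11 B cell markers ran from 594 to 659 on spinal cord arrays and from 1187 to 1273 on lymph node arrays, or 496 to 551 and 459 to 653 without Cd22. Summed intensities were 4149 to 5334 against 1753 to 2686 for 8 NK and NKT cell markers. They were 850, 2428 and 961 against 414 to 590 for 9 neutrophil markers, and 680 to 772 against 469 to 531 for 7 dendritic cell markers. Without overlap, 3, 3 and 4 genes of these lists were higher in spinal cord and 0 lower, against 8.81% and 9.68% of all genes. Eomes (52 to 306 against 113 to 1185) and S100a8 (53 to 752 against 30 to 59) were among those that overlapped. Mmp9 alone read 259 to 420 against 96 to 145 and Itgax 229 to 315 against 79 to 97, and no sum was taken without them. In each of these 3 lists 1 gene was called higher in spinal cord by limma, against 1.13% of all genes. These were Klrd1 (1.93, adjusted p = 0.0243), Mmp9 (1.42, adjusted p = 0.0439) and Itgax (1.53, adjusted p = 0.0128). Leaving out 1 array could end each call, with a highest limma adjusted p of 0.0964 for Klrd1 (spinal cord array 3), 0.17 for Mmp9 and 0.0625 for Itgax (both lymph node array 2). The sums of 5 plasma cell markers (355 to 378 against 352 to 514) and 2 CD8 T cell markers (281 to 349 against 255 to 314) overlapped between tissues. Several SLAM receptors are also made by B cells, NK cells and myeloid cells, and the part of these cells in the members' values was not tested. In these bulk samples a lower value cannot be told apart between fewer cells that make a transcript and less transcript per cell.

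**Figure D1:**
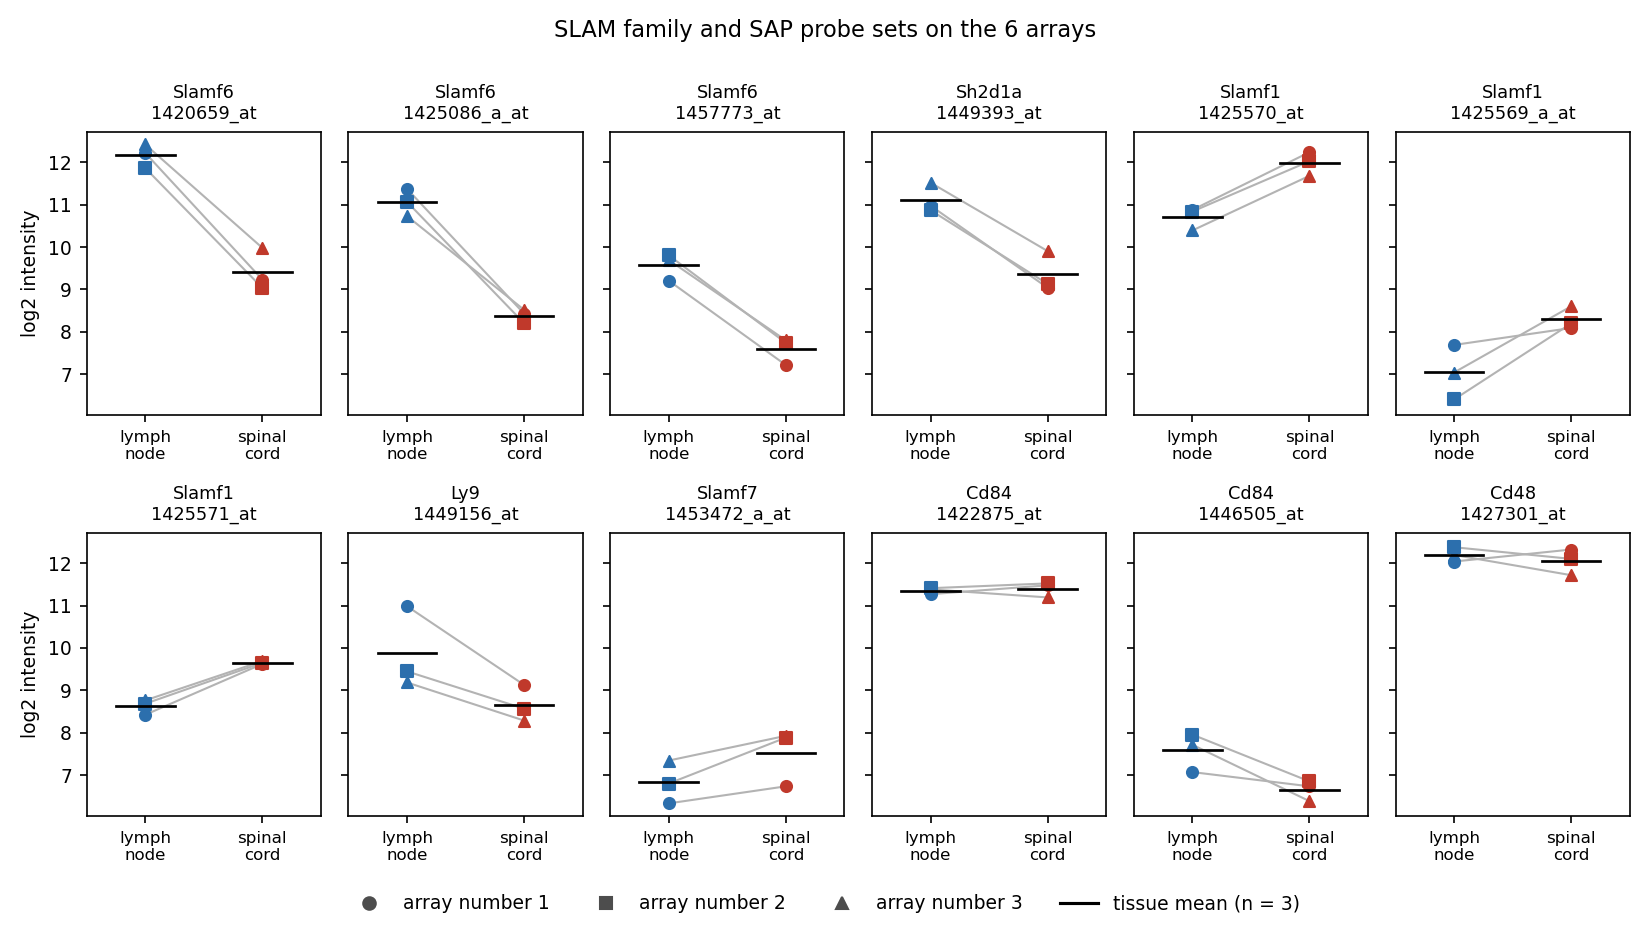
Log2 intensity (vertical axis) of the 12 member probe sets on each array, with lymph node on the left and spinal cord on the right of each panel; marker shapes give the array number, grey lines join arrays of the same number and black bars are the tissue means (n = 3). The 3 Slamf6 probe sets and Sh2d1a lie lower on all 3 spinal cord arrays, the 3 Slamf1 probe sets lie higher, and Cd48 and the first Cd84 probe set overlap between tissues.

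Of the 7 genes, the receptor gene Slamf6 and the adaptor gene Sh2d1a fell in spinal cord, the receptor gene Slamf1 rose, and the other 4 were not called (limma, adjusted p below 0.05 over 18193 genes). Among all genes 1.41% were called lower and 1.13% higher, together 2.54%, so 3 of 7 is well above that share. A limma fit of only the 10916 genes at or above the 40th percentile of mean intensity called 242 lower and 215 higher. No member was called without spinal cord array 2 or without lymph node array 2. The members were chosen with earlier results known, so their count has no test of its own. Of the 7 changes 3 were positive and 4 negative, with a median of -0.16, against 0.00 over all genes. Over genes at or above the 40th percentile of mean intensity, which include all 7, the median was -0.12. With quantile normalization the median of the members was -0.04. With the probe set of largest variance for each gene that median was -0.92. Tissue groups did not overlap for 4 of 7 genes, against 18.5% of all genes: 1 member was higher, against 8.81% of all genes, and 3 were lower, against 9.68%.

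Slamf6, also known as Ly108, is the receptor that binds itself between T and B cells and signals through SAP. Its probe set 1420659_at read 602, 525 and 1010 on spinal cord arrays 1, 2 and 3 and 4759, 3717 and 5460 on the lymph node arrays. Every spinal cord array lay far below every lymph node array. The log2 change was -2.75 ± 0.28 SE (95% interval -3.44 to -2.06), a level 6.71-fold lower, with an adjusted p of 0.0105 by limma, and it ranked 36 of 18193 genes from the largest decrease. The other probe sets gave the same picture: 1425086_a_at read 345, 295 and 367 against 2647, 2142 and 1698, and 1457773_at read 149, 214 and 223 against 591, 894 and 828. In a limma fit over all probe sets, where 1.49% were called, all 3 were called lower, with changes of -2.75 ± 0.28, -2.67 ± 0.19 and -1.98 ± 0.23 (adjusted p = 0.0144, 0.00741 and 0.0199). Within arrays of the same number, lymph node exceeded spinal cord 7.91-fold, 7.08-fold and 5.41-fold at 1420659_at. At the gene level the limma call held in 4 of the 6 fits without 1 array. Leaving out spinal cord array 2 (change -2.56, adjusted p = 0.0543) or lymph node array 2 (-2.90, adjusted p = 0.0501) ended it.

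Sh2d1a encodes SAP, the small SH2-domain adaptor that most of these receptors share. Its spinal cord arrays read 526, 560 and 958 and its lymph node arrays 2011, 1868 and 2928, and the highest spinal cord value was below the lowest lymph node value. The highest array in each tissue was number 3, and the ratio of lymph node to spinal cord within a number was 3.82, 3.34 and 3.06. The log2 change was -1.76 ± 0.29 SE (95% interval -2.47 to -1.05), a 3.39-fold lower level, with a limma adjusted p of 0.0414. This call lies near the threshold. It held without spinal cord array 3 (-2.03, adjusted p = 0.0366). Leaving out spinal cord array 1 (-1.60, adjusted p = 0.115) or 2 (-1.65, 0.158) or lymph node array 1 (-1.83, 0.092), 2 (-1.89, 0.132) or 3 (-1.56, 0.113) ended it. Quantile normalization (-1.64, adjusted p = 0.0685) and a pseudocount of 16 (-1.74, adjusted p = 0.0572) ended it too. In the fit over probe sets its adjusted p was 0.0556.

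Slamf1 encodes CD150, the founding receptor of the family, which binds itself and also docks SAP. Its probe set 1425570_at read 4814, 4155 and 3274 on the spinal cord arrays, against 1875, 1828 and 1341 on those from lymph node. Each spinal cord array exceeded each lymph node array, and the ratio within a number was 2.57, 2.27 and 2.44. The log2 change was 1.28 ± 0.21 SE (95% interval 0.78 to 1.78), a 2.42-fold higher level, with a limma adjusted p of 0.038. Probe set 1425571_at read 789, 804 and 827 against 344, 412 and 435, a change of 1.03 ± 0.13, and 1425569_a_at read 273, 294 and 389 against 207, 85 and 132, a change of 1.25 ± 0.34. None of the 3 probe sets overlapped between tissues. In the fit over probe sets only 1425571_at was called (adjusted p = 0.0224, against 0.0509 for 1425570_at and 0.19 for 1425569_a_at). No fit without 1 array kept the gene-level limma call: without spinal cord array 1, 2 or 3 the change was 1.15, 1.26 or 1.43 (adjusted p = 0.103, 0.148 and 0.0598). Without lymph node array 1, 2 or 3 it was 1.36, 1.35 or 1.12 (adjusted p = 0.0759, 0.133 and 0.0966). It was also lost when 1425569_a_at, the probe set with the largest variance, stood for the gene (adjusted p = 0.173).

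**Figure D2:**
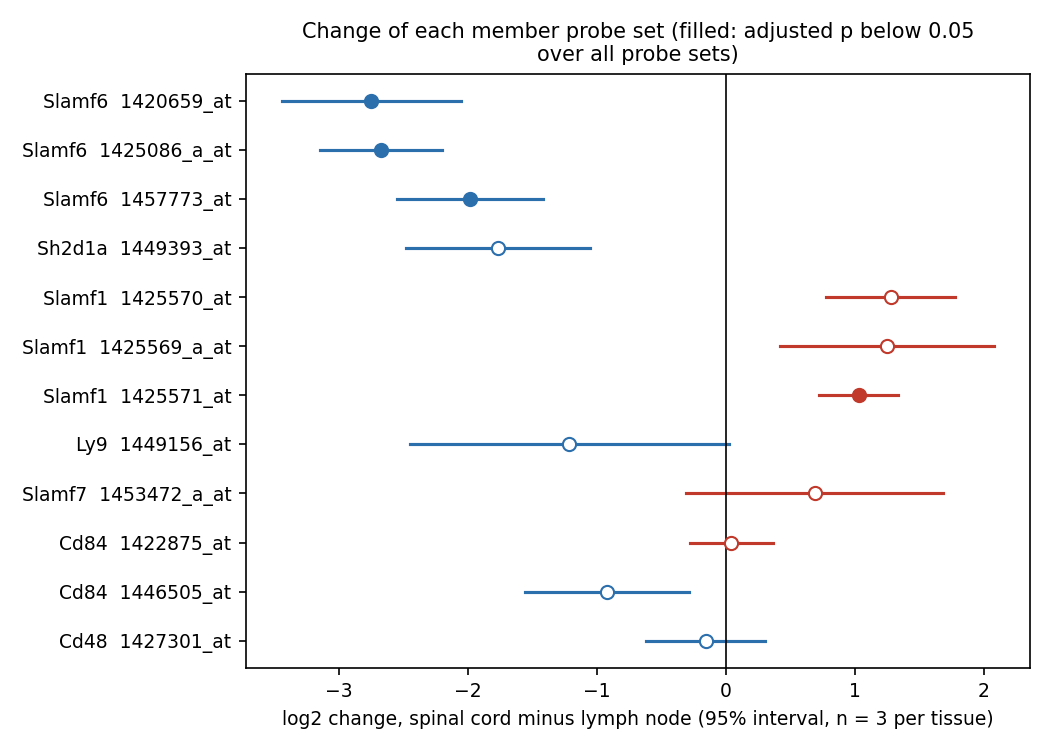
Log2 change between spinal cord and lymph node (horizontal axis) of each member probe set with its 95% interval from limma (n = 3 per tissue); filled points had an adjusted p below 0.05 over all probe sets. The 3 Slamf6 probe sets lie between -2.75 and -1.98 and the 3 Slamf1 probe sets between 1.03 and 1.28, while the 2 Cd84 probe sets lie apart at 0.04 and -0.92.

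Ly9 (CD229) is a self-binding receptor found on T and B cells. Its spinal cord values were 560, 380 and 313 and its lymph node values 2025, 699 and 583. The tissues did not overlap, but they lay close, with 560 as the highest spinal cord value and 583 as the lowest lymph node value, and lymph node array 1 stood well above the rest. The log2 change was -1.21 ± 0.50 SE (95% interval -2.44 to 0.02; limma adjusted p = 0.358), and without lymph node array 1 it was -0.66 ± 0.28. In both tissues array 1 was the highest and array 3 the lowest, and the ratio of lymph node to spinal cord within a number was 3.62, 1.84 and 1.86. With the array number as a block, Ly9 was called lower (-1.21 ± 0.22 SE, limma adjusted p = 0.0268). That fit called 11.1% of all genes, 7.45% lower and 3.67% higher, and it called 3 members lower and 1 higher. Besides Ly9 these were Slamf6 (limma adjusted p = 0.00107) and Sh2d1a (0.00188), both lower, and Slamf1 (0.00335), higher.

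Slamf7 (CRACC), a self-binding receptor known from NK cells, plasma cells and activated macrophages, gave 107, 237 and 244 on the spinal cord arrays, against 81, 112 and 163 on those from lymph node. Spinal cord array 1 lay below 2 of the lymph node arrays, so the tissues overlapped. The log2 change was 0.69 ± 0.40 SE (95% interval -0.30 to 1.67; limma adjusted p = 0.543; exact permutation p = 0.3). Within arrays of the same number, spinal cord exceeded lymph node 1.321-fold, 2.116-fold and 1.497-fold. The fit with the array number as a block gave 0.69 ± 0.16 SE, just above the threshold (limma adjusted p = 0.0523). Without spinal cord array 1 the change was 1.08 ± 0.31 (adjusted p = 0.228) and without lymph node array 1 it was 0.44 ± 0.44. The summed intensity of the macrophage, monocyte and microglia markers was 1685, 6316 and 3535 on the spinal cord arrays. On the lymph node arrays, where Slamf7 read 81, 112 and 163, that sum was 945, 951 and 1026. Of these markers 17 of 19 were higher without overlap between tissues, against 8.81% of all genes. Limma called 0 of these 19 markers, against 2.54% of all genes, and 17 had an unadjusted p below 0.05. With the array number as a block 9 were called higher, against 3.67% of all genes. For the 8 NK and NKT cell markers the sum was 5067, 4149 and 5334 on the spinal cord arrays, above every lymph node sum (1753 to 2686). Without overlap, 3 of the 8 were higher and 0 lower, against 8.81% and 9.68% of all genes. Of their changes 6 were positive and 2 negative. The block fit called 2 of the 8 higher and 1, Eomes, lower (-1.73, limma adjusted p = 0.00898), against 3.67% and 7.45% of all genes. Klrd1 alone read 2498, 1776 and 2572 against 423, 770 and 637. The part of either list in the Slamf7 values was not tested.

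Cd84 and Cd48 gave close values in the 2 tissues. Cd84, a self-binding receptor that also signals through SAP, had spinal cord values of 2848, 2938 and 2337 at 1422875_at and lymph node values of 2464, 2717 and 2665. The log2 change was 0.04 ± 0.13 SE, and its 95% interval of -0.28 to 0.37 reaches from 1.21-fold lower to 1.29-fold higher. The second Cd84 probe set, 1446505_at, pointed lower: it read 107, 116 and 84 against 135, 249 and 211, a change of -0.92 ± 0.26 that was not called over probe sets (limma adjusted p = 0.205). Cd48, the lipid-anchored member, had spinal cord values of 5108, 4384 and 3360 and lymph node values of 4199, 5304 and 4675. Its tissues overlapped widely, with a log2 change of -0.16 ± 0.19 SE and a 95% interval of -0.62 to 0.30, which reaches from 1.53-fold lower to 1.23-fold higher. Neither gene was called in any fit, and intervals of this width do not show equal levels.

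Over the 12 probe sets, 3 were called lower, all of Slamf6, and 1 higher, of Slamf1, in the fit over probe sets. That fit called 1.49% of all probe sets. The tissues did not overlap for 9, against 16.8% of all probe sets. Those 9 were 6 lower in spinal cord, 3 of them of Slamf6, and 3 higher, all of Slamf1. Probe sets of the same gene are not independent, so these are not counts of genes. An exact permutation test (two-sided) of each of these 9 returned p = 0.1, and 3 arrays against 3 cannot go lower. Slamf1 and Slamf6, which lie in the same chromosome 1 cluster with Cd84 between them, moved in opposite directions in spinal cord, by 1.28 and -2.75, while Cd84 at 1422875_at had a change of 0.04.

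**Figure D3:**
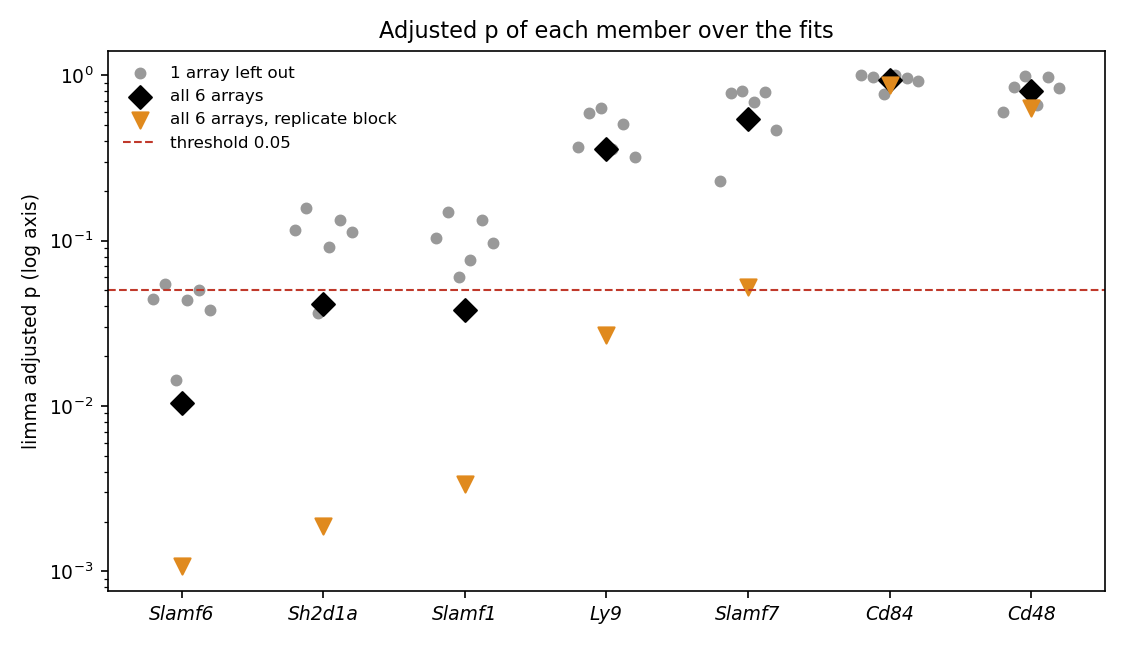
Limma adjusted p (vertical log axis) of each of the 7 genes with all 6 arrays, with the array number as a block and with each array left out in turn; the dashed line is 0.05. Slamf6 lies below it in 4 of the 6 fits without 1 array, Slamf1 lies above it in all 6 such fits, and Ly9 passes it with the block.

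None of 4 other receptors of the family or partners of Cd48 was called by limma, which called 2.54% of all genes. At an unadjusted p below 0.05 there was 1, Slamf8. Slamf8, a receptor known from macrophages, gave 32, 68 and 49 on the spinal cord arrays and 34, 22 and 26 on those from lymph node, values near the low end of the arrays (0.82 ± 0.31 SE; limma adjusted p = 0.307). Slamf9 read 132 to 163 and 120 to 150 (0.19 ± 0.15), and Cd244a, the receptor 2B4 that binds Cd48, read 39 to 46 and 37 to 48 (0.06 ± 0.15). Cd2, the other partner of Cd48, had spinal cord values of 4967, 5696 and 11680 and lymph node values of 7321, 4275 and 14440. Array 3 was the highest in both tissues, which overlapped, and the change was -0.15 ± 0.52 (limma adjusted p = 0.941).

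Of 15 measured genes that act with SAP or beneath SLAM receptors, none was called by limma, against 2.54% of all genes. With the array number as a block 4 of these 15 were called lower, a fit in which 7.45% of all genes were lower. At an unadjusted p below 0.05 there were 3, Rasa1, Ptpn11 and Prkcq, the 3 with the smallest p. Rasa1, which encodes a Ras GTPase-activating protein, had a change of -0.86 ± 0.18 SE (adjusted p = 0.0764), Ptpn11, which encodes the phosphatase SHP-2, -0.96 ± 0.23 (adjusted p = 0.115), and Prkcq, which encodes protein kinase C theta, -0.83 ± 0.24 (adjusted p = 0.186). The block called these 3 and Csk, the inhibitory kinase of the Src family (-0.60 ± 0.11 SE with the block, adjusted p = 0.0298). Fyn, the kinase that SAP recruits, had spinal cord values of 3925, 5426 and 3500 and lymph node values of 8858, 4496 and 5469. The Fyn values overlapped, with a change of -0.52 (limma adjusted p = 0.531). The list median was -0.21, against 0.00 over all genes. Over genes at or above the 40th percentile of mean intensity, which include all 15, the median was -0.12. With quantile normalization the list median was -0.08.

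Follicular help to B cells is the T cell function for which SAP is best known. Of 14 measured genes of that function, Cxcr5, Pou2af1, Il4, Btla, Cd200 and Il21 fell, 8 were not called, and the list median was -1.87. Among all genes 1.41% were called lower, and the median was 0.00. This list was drawn up with results of these samples known, so its count is a description. The limma calls among these genes numbered 3, 4 and 3 without spinal cord array 1, 2 or 3 and 4, 2 and 6 without lymph node array 1, 2 or 3. Among the 6, Cxcr5 and Pou2af1 were called in all 6 of those fits. Bcl6 (-0.50), Icos (0.02) and Pdcd1 (-0.85), also known from follicular helper cells, were not called. The other uncalled genes were Tox2 (-2.02), Tnfsf8 (-1.71), Ascl2 (-1.12), Maf (-0.76) and Cd40lg (0.34). Without overlap between tissues, 9 of the 14 were lower and 1 higher, against 9.68% and 8.81% of all genes. With the array number as a block, limma called 8 of the 14 lower, against 7.45% of all genes, and 0 higher. Of the 11 B cell markers Cd22 was called lower in spinal cord, with 98 to 116 against 620 to 750. Cd79b, with 29 to 43 against 57 to 117, did not overlap between tissues (change -1.15, limma adjusted p = 0.134) and was called lower with the block (adjusted p = 0.0267). Cd79a read 36 to 54 and 40 to 63 and Ms4a1 read 28 to 39 and 27 to 43.

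**Figure D4:**
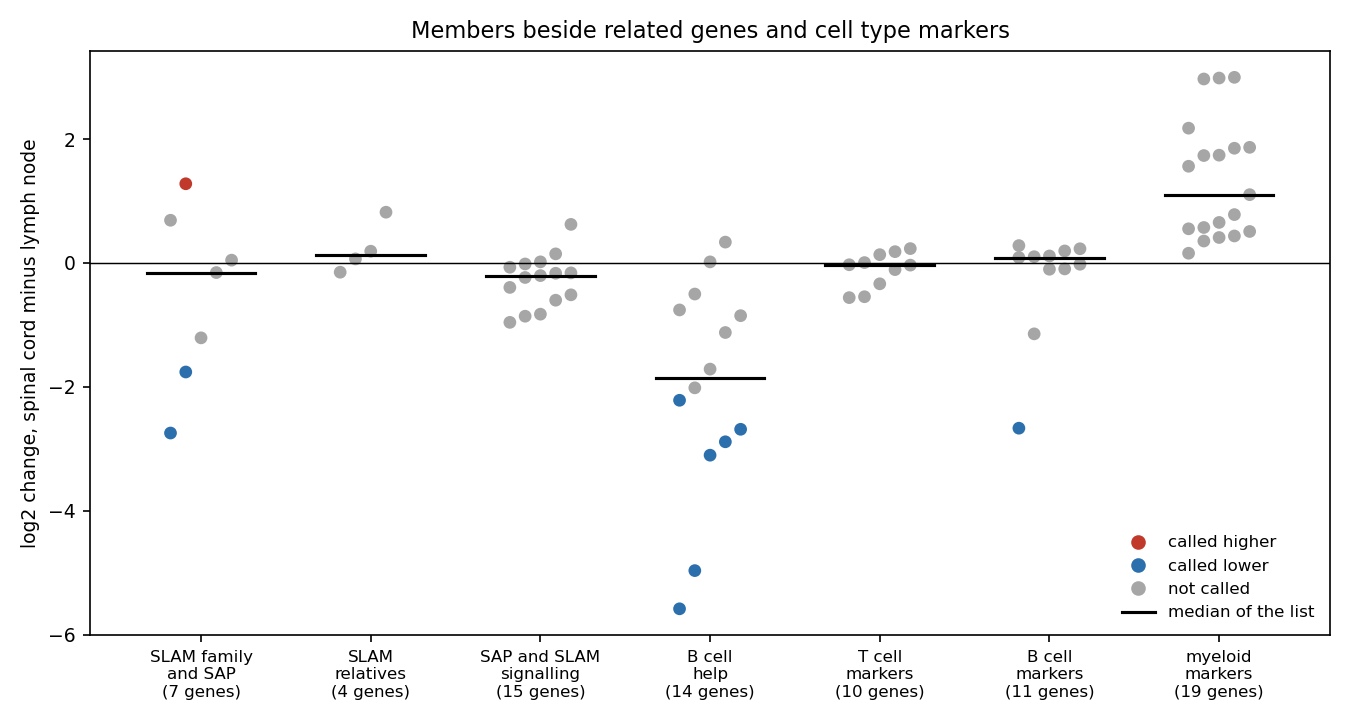
Log2 change between spinal cord and lymph node (vertical axis) of each measured gene in the SLAM family, its relatives, its signalling partners, B cell help genes and markers of T cells, B cells and myeloid cells; coloured points were called by limma over all genes and black bars are list medians. The members spread from -2.75 to 1.28 and the B cell help genes have a median of -1.87. The T cell markers run from -0.56 to 0.23, with a median of -0.03.

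The genes whose profiles over the 6 arrays came nearest to each member were found by the root mean square distance between log2 profiles, each centred on its own mean, among 10915 genes in the upper part of the range. The arrays share tissue and array number, so the distances describe these 6 arrays only. Nearest to Slamf6 were Plagl1 (distance 0.13 on the log2 scale), Capn3 (0.27) and St6gal1 (0.27), with changes of -2.86, -2.63 and -2.57. Those nearest to Sh2d1a were Zfp667 (0.07), Fam43a (0.13) and Mgst2 (0.16), and those nearest to Slamf1 were Fhl2 (0.13), Arl15 (0.13) and Zfp652 (0.14). Ly9 was nearest to Vamp1 (0.15), Il17rb (0.21) and Igfbp4 (0.22), and Slamf7 to Bcl2 (0.14), Nampt (0.17) and Hpse (0.18). For Cd84 they were Samhd1 (0.04), Ube2a (0.06) and Kcnj4 (0.06), and for Cd48 they were Pnp (0.04), Nfatc3 (0.04) and Nanos1 (0.05). The profiles of Cd84 and Cd48 were themselves nearly flat, with root mean square deviations of 0.11 and 0.22 from their means.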

How the data were processed

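RNA from memory-phenotype CD4+ T cells was amplified in 2 cycles from 1 ng and hybridised to 3 arrays per tissue. The authors deposited intensity values on a linear scale made with RMA, per the submitters' processing notes, with the version not given in the sources used here. They were whole numbers from 9 to 39505, and log2 was taken here. Arrays carry no read depth, and their number limits precision. At least 93.5% of probe sets differed between any 2 arrays.

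Of 45101 probe sets, 34945 that are not controls carried 1 symbol, 932 several and 9160 none; 64 were controls. Names came from the platform annotation, and 34741 matched RefSeq GRCm38.p6 by gene identifier, with 0 symbols changed. Each of 18193 genes was represented by its probe set of highest mean. Tissue was fitted with limma 3.58.1 in R 4.3.3 (lmFit, eBayes), p-values were adjusted by Benjamini-Hochberg over all genes, and a gene was called below 0.05. A second fit took all 34945 probe sets. Intervals are 95% intervals of that model. In simulated data (18193 genes) it found 38%, 70%, 92% and 96% of the genes given log2 changes of 1, 2, 3 and 4 and made 5 false calls. The simulated arrays were drawn independently, without the correlation of same-numbered arrays given below, so these rates may not hold for the real arrays. Software was Python 3.11.15 with matplotlib 3.10.9, scipy 1.17.1, numpy 2.4.6 and pandas 2.3.3.

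Samples were grouped by title. No label says that arrays are separate animals, so the p-values reflect only how these samples vary, which may be technical. Titles carry numbers 1 to 3 within a tissue, with no word on their meaning. Deviations from tissue means were correlated across genes, which are not independent replicates. The correlations were 0.58, 0.51 and 0.78 for same-numbered arrays and -0.57 to 0.01 for the others. Deviations within a tissue cancel out, so positive values for same-numbered arrays push the others towards negative ones. That part of the contrast is built in, but which arrays correlate positively is not. The numbers were taken as pairs from the data, not the labels. Only the fit with the array number as a block used these pairs. The main fit, the fit over probe sets and the fits without 1 array did not.

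The members, lists, motifs and tests were chosen with earlier results of these data known. The naming rule took all member probe sets, all SLAM relatives, called genes of the signalling and B cell help lists or else the 3 with the smallest p, called genes within the receptor cluster, and the 3 nearest profiles per member. Fyn, Csk, the uncalled B cell help genes and the cell type markers were named outside it. Listed genes with no probe set of their own were not analysed here. Alternatives were the array number as a block, each array left out, median centring, quantile normalization, a filter at the 40th percentile, other choices of probe set, another variance prior and a pseudocount of 16.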

Additional observations from a re-analysis of the deposited data

How the results depend on the processing

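The Slamf6 decrease stayed below the threshold under all 8 alternatives that kept every array. Without 1 array its log2 change ranged from -3.03 to -2.56, that of Slamf1 from 1.12 to 1.43, Sh2d1a from -2.03 to -1.56, Ly9 from -1.55 to -0.66, Slamf7 from 0.44 to 1.08, Cd84 from -0.02 to 0.15 and Cd48 from -0.29 to 0.01. Cd84 and Cd48, never called, thus changed sign without spinal cord array 2 (-0.018) and 3 (0.0085). Cd84 was also lower with the mean of its probe sets (-0.44) or the probe set of largest variance (-0.92). That last choice left Slamf1 at 1.25 and uncalled, with 0 members higher. Sh2d1a lost its call under quantile normalization (-1.64) and a pseudocount of 16 (-1.74), leaving 1 member lower in each. With the array number as a block Ly9 was called (-1.21), no other member's call changed, and 668 genes were higher and 1355 lower. Without 1 array, 0 members were higher and 0 to 2 lower, with 49 to 136 genes higher and 32 to 190 lower. The causes of these changes were not tested, except that fits without an array rest on 5. Signal over background could not be judged array by array.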
